A study of Mus musculus with 3 samples.

Results

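Rod bipolar cells are the retinal interneurons that carry the signals of rods to the inner retina, and 255 of the 5400 barcodes kept from a single-cell RNA-seq survey of the mouse retina met the rule for them. A barcode was kept with 500 to 6000 detected genes and 1 to 20% of its unique molecular identifiers (UMIs, each standing for 1 captured transcript) on mitochondrial genes. It was called a rod bipolar cell with a UMI of at least 3 of Prkca, Car8, Sebox, Vstm2b and Cacna2d3 and of at least 2 of Trpm1, Pcp2, Grm6 and Isl1. The cells were chosen by the UMIs of these 9 genes, so the levels of the 9 are given as a description.

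The study prepared 3 retinal libraries from C57BL/6JRj mice, an unmodified inbred strain, aged 3 (young), 12 (adult) or 23 months (old), to follow the ageing of retinal vessels. Each library pooled the 4 retinas of 2 animals, and the sources used here do not give their sex. Vascular fragments were pelleted at low speed, the neuron-rich supernatant was discarded and CD31+ cells, mainly endothelial, were enriched on magnetic beads. With 1 library for each age, ages were compared by their values with no test, and age cannot be told apart from library, animals or preparation.

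In the retina, a rod bipolar cell receives glutamate from rods through the receptor mGluR6, the product of Grm6. In darkness the receptor acts through the G protein Go to keep the cation channel TRPM1 closed, and light, by lowering glutamate, lets the channel open and the cell depolarise. The axon ends in ribbon synapses onto AII amacrine cells and receives GABA and glycine feedback there. Cone bipolar cells carry cone signals instead: the ON types share the mGluR6 cascade, whereas the OFF types use ionotropic glutamate receptors.

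The young, adult and old libraries held 89, 89 and 77 rod bipolar cells. They were 5.20% (exact 95% binomial interval 4.19 to 6.35), 4.51% (3.64 to 5.52) and 4.5% (3.56 to 5.59) of the kept barcodes, which numbered 1713, 1974 and 1713. The 3 intervals overlapped. They cover counting error only, and a share of a CD31-enriched suspension is not the share of the cells in the retina. The deposited matrices summed to 16577026, 19977238 and 17021820 UMIs, of which the rod bipolar cells held 711845, 821810 and 661648. A rod bipolar cell had a median of 7532, 8427 and 8468 UMIs and of 2638, 2837 and 2746 genes. Of all deposited barcodes, kept or not, the libraries shared 0 to 3 by pair.

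The mitochondrial share of rod bipolar cells was set beside that of ON cone bipolar, OFF cone bipolar and rod cells. Its median was 15.7%, 16.2% and 13.4% in young, adult and old rod bipolar cells. It was 8.30%, 9.46% and 7.94% in ON cone bipolar cells, 9.74%, 7.12% and 8.03% in OFF cone bipolar cells and 6.94%, 7.61% and 6.93% in rods, which were gated from their own marker genes. All 3 rod bipolar medians lay above all 9 of the others. The upper limit of 20% cut into the rod bipolar cells: 21, 25 and 23 barcodes above it met the marker rule.

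**Figure D1:**
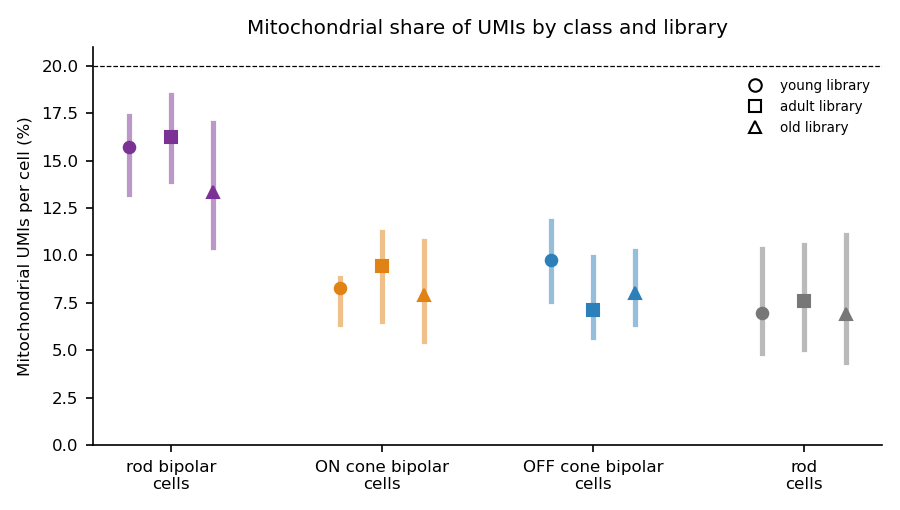
Share of UMIs on mitochondrial genes (percent, y axis) by class (x axis) and library (marker shape), as the median over cells with a bar from the lower to the upper quartile, and the 20% limit on kept barcodes as a dashed line. The rod bipolar medians of 15.7%, 16.2% and 13.4% lie above those of ON cone bipolar cells, OFF cone bipolar cells and rods.

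The 9 genes of the rule were present together in most cells. All 9 had a UMI in 72 of 89 young cells (80.9%), 78 of 89 adult cells (87.6%) and 65 of 77 old cells (84.4%), which held a median of 160, 189 and 191 UMIs of the 9 genes. Just inside the threshold, 3, 4 and 3 cells had exactly 3 of the first 5 genes, with 87, 36 and 42 UMIs of the 9. Just outside it, 10, 15 and 10 barcodes had 2 of the first 5 genes and at least 2 of the other 4, with a median of 28.5, 39 and 31 such UMIs. No barcode had at least 3 of the first 5 genes and exactly 1 of the other 4.

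Of the first set, Prkca, which encodes protein kinase C alpha, the classical antigen for staining rod bipolar cells, stood at 3044, 2633 and 2908 CPM (UMIs of a gene per 1000000 UMIs of its class) in young, adult and old cells. In ON cone bipolar cells Prkca stood at 0, 0 and 28.4 CPM and in OFF cone bipolar cells at 0, 6.06 and 5.08 CPM. Car8, a carbonic anhydrase-related protein, had 1049, 892 and 1081 CPM in rod bipolar cells and 44.3, 19.7 and 18.9 CPM in ON cone bipolar cells. Barcodes were assigned to the class by these genes, so the gap between classes was set by that choice. Sebox, a homeobox gene, had 618, 617 and 742 CPM, Vstm2b had 604, 541 and 644 CPM and Cacna2d3, a calcium channel auxiliary subunit, had 1070.5, 1095 and 1105 CPM. Cacna2d3 was the member of the set with the most signal in ON cone bipolar cells, at 155, 108 and 142 CPM.

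The second set marks ON bipolar cells in general. Trpm1 stood at 3641, 3128 and 3079 CPM in rod bipolar and 790.2, 993 and 1003 CPM in ON cone bipolar cells. Pcp2, a regulator of Go, stood at 8148, 9112 and 10253 CPM in rod bipolar and 2038, 2752 and 889 CPM in ON cone bipolar cells. Grm6 did not follow them: it had 424, 436 and 358 CPM in rod bipolar cells against 561, 432 and 454 CPM in ON cone bipolar cells, with overlapping ranges. Isl1, a LIM homeobox factor, had 848, 874 and 804 CPM against 724, 531 and 558 CPM. In OFF cone bipolar cells Grm6 had 0 UMIs in all 3 libraries. The gate of that class limited how many of Trpm1, Grm6 and Isl1 a barcode could hold, so a low level was built in.

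**Figure D2:**
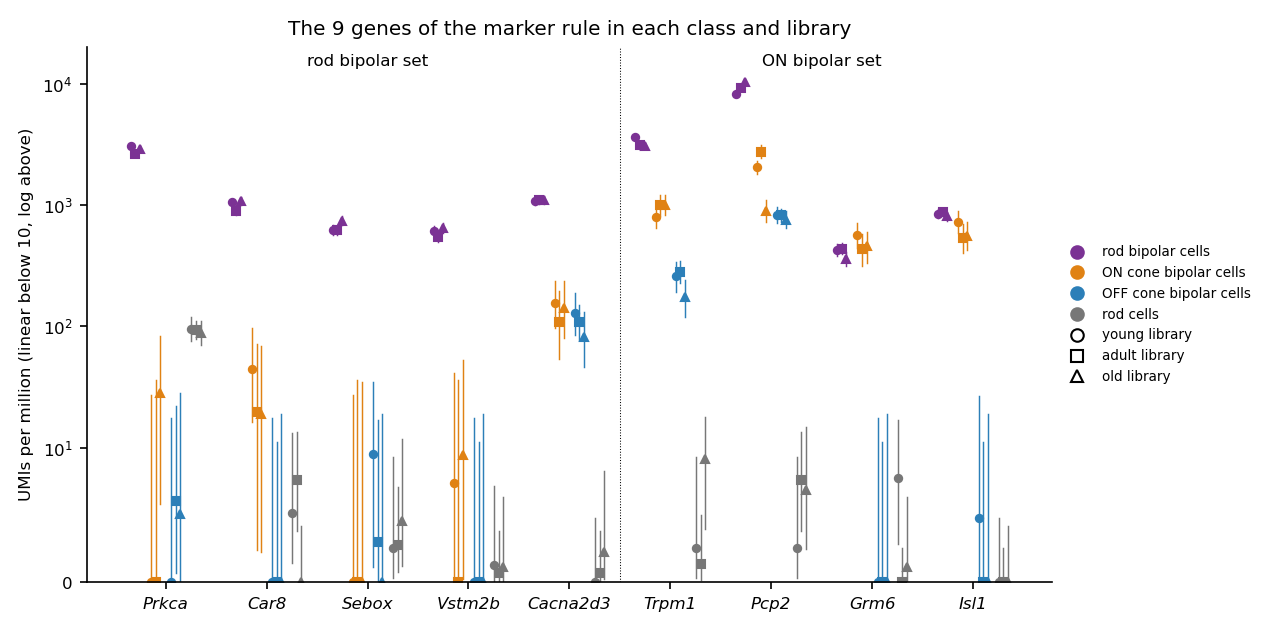
Levels of the 9 rule genes (CPM, axis linear under 10 and logarithmic above) in rod bipolar, ON cone bipolar, OFF cone bipolar and rod cells, 1 point per library with its exact 95% Poisson interval. Grm6 and Isl1 lie close together in rod bipolar and ON cone bipolar cells, whereas Sebox and Vstm2b are at or near 0 in both cone bipolar classes.

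The promoter of Trpm1 is shown because its product is the channel at the end of the cascade and because OTX2 and CRX, homeobox factors of photoreceptors and bipolar cells, are known for a TAATCC motif. The 250 bases before each RefSeq gene start (GRCm38.p6) were searched for TAATCC on both strands, the other strand reading GGATTA. Such a match was present in 6.25% of 32851 promoters of all genes. Of the 9 rule genes 8 had a promoter entry, with 12 promoters in all, and 2 of the 12 (16.7%), 1 each of Trpm1 and Isl1, held a match. Trpm1 also has a pair of promoters, of which the one with the match is shown. This window lies at chr7:64153585-64153834 on the plus strand, and its capitals mark the match, which starts 34 bases before the gene start. A match is a string of letters and not a shown binding site.
Trpm1 promoter: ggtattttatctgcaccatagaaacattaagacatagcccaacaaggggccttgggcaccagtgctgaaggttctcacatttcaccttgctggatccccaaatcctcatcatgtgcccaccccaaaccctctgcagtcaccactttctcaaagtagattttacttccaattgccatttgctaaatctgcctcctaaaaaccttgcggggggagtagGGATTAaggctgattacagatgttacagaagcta

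Cells with RNA of other classes were counted before any comparison. A rod bipolar droplet was called mixed where it held a UMI of at least 3 endothelial, pericyte, amacrine or B cell markers, or of at least 5 Müller glia markers, which applied to 1 young, 7 adult and 4 old cells. The summed level of 14 rod markers was 746, 1162 and 1349.7 CPM in young, adult and old rod bipolar cells, with none of the 14 at 0. The summed level of 10 Müller glia markers was 230.4, 2082 and 304 CPM, and that of 7 pericyte markers was 30.9, 661 and 611 CPM. Cone markers stayed at 31.6 to 62.0 CPM, endothelial markers at 227.5 to 387 CPM, ganglion cell markers at 4.21 to 28.7 CPM, haemoglobin genes at 5.62 to 21.9 CPM and B cell markers at 0 to 18.3 CPM. Of 8 amacrine markers 6, 5 and 6 were at 0. The high Müller glia value belonged to the adult library and the high pericyte values to the adult and old libraries. The results on ages are given without the mixed droplets unless they are said to include them.

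When all kept barcodes were clustered without the 9 rule genes, 214 of the 255 rod bipolar cells (83.9%) fell in 1 of 32 clusters, and that cluster held 1 other barcode. It held no cell gated as ON cone bipolar, OFF cone bipolar or rod. The shares were 85.4%, 82.0% and 84.4% in the young, adult and old libraries. Among its leading genes by fold were Pcp4, at 5026 CPM against 101.1 CPM in the rest, Gng13, at 8791 against 202 CPM, Lrrtm4, at 227 against 4.05 CPM, and the noncoding RNA Gm35217, at 94.7 against 0.442 CPM. These genes formed the cluster and are named as a description.

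To find which genes separated rod bipolar cells from the other bipolar classes, UMIs were summed by library and class. The ON cone bipolar cells numbered 26, 18 and 20 and the OFF cone bipolar cells 34, 49 and 33. ON cone bipolar cells were gated by genes of the second rule set and by ON cone genes, with limits on the first set and on OFF cone genes. OFF cone bipolar cells were gated by OFF cone and bipolar genes, with limits on the first set and on Trpm1, Grm6 and Isl1. An edgeR quasi-likelihood fit with library as a term tested 4376 genes, leaving out the genes that gated a class, and a gene was called at an adjusted p under 0.05 and a 2-fold difference. Against ON cone bipolar cells 303 genes (6.92%) were higher and 352 (8.04%) lower, and against OFF cone bipolar cells 354 (8.09%) were higher and 423 (9.67%) lower. Both comparisons called 231 genes higher and 282 lower, and they share the rod bipolar sums. The median log2 fold change of all genes was 0.01 against ON and -0.02 against OFF cone bipolar cells. The higher mitochondrial share of rod bipolar cells lies in these totals, and its part in the results was not tested.

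Most genes with the highest fold against ON cone bipolar cells had no UMI there, which gives a lower bound on the fold. The bound is set against 3 UMIs over the class. Tpbg, a membrane glycoprotein, had 191, 220.2 and 317 CPM in rod bipolar cells and 0 UMIs in ON cone bipolar cells, at least 27.4-fold higher. Kcne2, a potassium channel subunit, had 167, 158 and 195 CPM and was at least 19.7-fold higher. Tanc1, a postsynaptic scaffold protein, had 176, 133 and 141 CPM and was at least 17.0-fold higher. Each of these genes was present in all 3 rod bipolar libraries and the groups did not overlap. The bound was at least 16.1 for Tmem196, 10.7 for the sodium bicarbonate cotransporter Slc4a4, 9.11 for Rph3a, a synaptic vesicle effector of Rab3, and 7.81 for the glycosyltransferase gene Galnt17. Slc4a4 and Tmem196 also had 0 UMIs in OFF cone bipolar cells, at least 22.9- and 34.7-fold lower there than in rod bipolar cells.

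A pair of protein-coding genes with 1 UMI in ON cone bipolar cells completed the group. Adamts5, a secreted protease that cuts proteoglycans, had 358, 422 and 401 CPM in rod bipolar cells against 0, 9.83 and 0 CPM, a log2 fold change of 7.14 ± 0.45 (SE), adjusted p = 6.06e-10. Il1rap, the accessory protein of the interleukin-1 receptor, had 288, 264 and 246 CPM, with a log2 fold change of 6.60 ± 0.53 (SE), adjusted p = 1.59e-08. Against OFF cone bipolar cells the log2 fold change was 3.98 ± 0.23 (SE) for Adamts5 and 6.14 ± 0.39 (SE) for Il1rap.

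The other genes named by the rule were noncoding. The lincRNA 5730419F03Rik (chromosome 1, 78595031 to 78609508, minus strand, GRCm38) had 162, 168 and 165 CPM in rod bipolar cells and 0 UMIs in either cone bipolar class, at least 18.8-fold and 40.5-fold higher. Gm35217 (chromosome 14, 28777427 to 28798421, minus strand) had 81.5, 87.6 and 77.1 CPM and was at least 9.42-fold higher than in ON and 20.3-fold higher than in OFF cone bipolar cells. It lies on the strand of the rule gene Cacna2d3, 106.5 kb away. A230077H06Rik (chromosome 7, 40818476 to 40900937, minus strand) had 119, 99.8 and 86.1 CPM, at least 11.7-fold higher. It is annotated antisense and overlaps 2610 bases of the rule gene Vstm2b, so reads could be shared between them, and it is reported as uncertain.

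**Figure D3:**
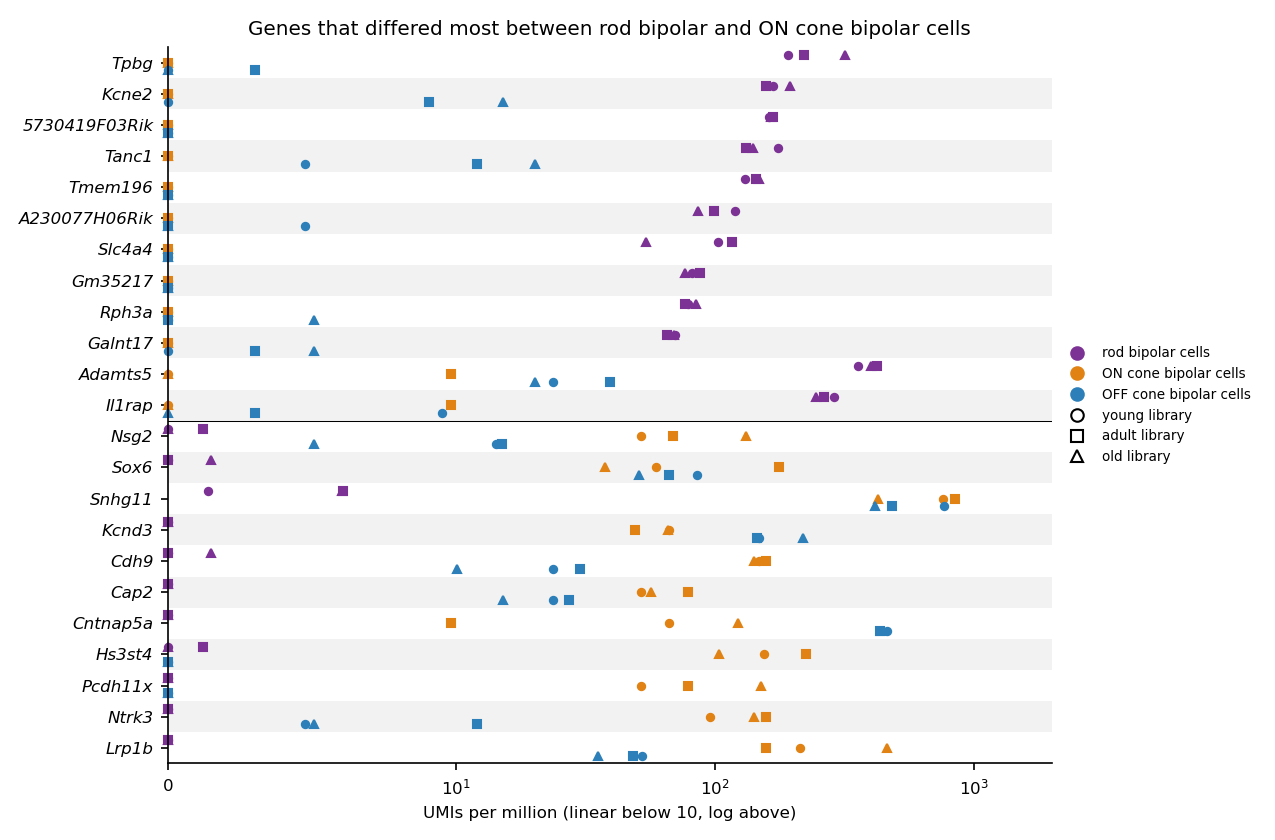
Levels (CPM, x axis linear under 10 and logarithmic above) of the 12 genes with the highest and 11 of the 12 with the lowest fold change against ON cone bipolar cells, 1 point per library (marker shape) and class (colour). In the upper rows all rod bipolar points lie right of all cone bipolar points, and in the lower rows all rod bipolar points lie left of all ON cone bipolar points.

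Several genes of ON cone bipolar cells had no UMI or 1 UMI in the rod bipolar cells. Lrp1b, an endocytic receptor, had 0 UMIs in rod bipolar cells and 214, 157 and 463 CPM in ON cone bipolar cells, at least 201-fold lower. Ntrk3, the receptor of neurotrophin-3, had 96.0, 157 and 142 CPM in ON cone bipolar cells and was at least 93.9-fold lower. Both genes separated the classes in every library. The bound was at least 66.2 for the protocadherin Pcdh11x, 49.1 for the contactin-associated gene Cntnap5a, 44.8 for the actin regulator Cap2 and 44.8 for the potassium channel Kcnd3. Snhg11, known as a neuronal noncoding RNA but annotated as protein-coding in GENCODE, had 1.40, 6.08 and 6.05 CPM in rod bipolar and 761, 845 and 426 CPM in ON cone bipolar cells, a log2 fold change of -6.85 ± 0.31 (SE), adjusted p = 7.37e-12. Hs3st4, which modifies heparan sulfate, Sox6, a transcription factor, and Nsg2, an endosomal protein of neurons, had 1 UMI each over all rod bipolar cells and log2 fold changes of -7.49 ± 0.70 (SE), -6.57 ± 0.82 (SE) and -6.49 ± 0.89 (SE).

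Of the mGluR6 cascade, 12 genes beside the rule genes were listed and 10 were tested. Against ON cone bipolar cells 3 were higher and 0 lower, with a median log2 fold change of 0.54, and against OFF cone bipolar cells 8 were higher and 0 lower, with a median of 2.42. These counts stand beside 6.92% and 8.09% of all genes tested. The OFF cone bipolar cells were gated with a limit on Trpm1, Grm6 and Isl1, and the part of this choice in their contrast was not tested. Gnao1, the alpha subunit of Go, had 1363, 1402 and 1257 CPM in rod bipolar cells, 835, 776 and 605 CPM in ON and 219, 230.2 and 208 CPM in OFF cone bipolar cells. Its log2 fold change was 1.11 ± 0.13 (SE), adjusted p = 1.75e-06 against ON and 2.85 ± 0.14 (SE), adjusted p = 6.01e-12 against OFF cone bipolar cells. The ranges of the 3 classes did not overlap. Gnb3 and Gng13, the beta and gamma partners of that protein, were higher against OFF cone bipolar cells, with log2 fold changes of 2.78 ± 0.14 (SE) for Gng13 and 3.80 ± 0.21 (SE) for Gnb3. Against ON cone bipolar cells Gng13, at 6921, 7432 and 8465 against 4513, 5553 and 5297 CPM, stayed under the 2-fold rule, at 0.82 ± 0.13 (SE), adjusted p = 6.34e-05.

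The proteins that end the G protein signal were also compared. Rgs7, a GTPase accelerator of Go, had 323, 229 and 277 CPM against 59.1, 9.83 and 56.7 CPM in ON cone bipolar cells, a log2 fold change of 2.92 ± 0.42 (SE), adjusted p = 2.99e-05. Gpr179, the orphan receptor that anchors the RGS proteins at the dendrite tip, had 666, 509.9 and 512 CPM against 339.7, 364 and 293 CPM, a log2 fold change of 1.02 ± 0.16 (SE), adjusted p = 6.46e-05. Both were higher in rod bipolar cells in all 3 libraries. Rgs11, the other accelerator, and its partner Gnb5 were called higher against OFF cone bipolar cells, at 1.95 ± 0.22 (SE) and 2.05 ± 0.17 (SE), as was Nyx, whose product nyctalopin holds TRPM1 at the synapse, at 2.04 ± 0.39 (SE). Rgs9bp and Lrit1 passed neither test.

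Bipolar transcription factors differed in both directions. Of 13 tested, 3 were higher and 4 lower against ON cone bipolar cells, beside 6.92% and 8.04% of all genes. The same 3 were higher and 7 lower against OFF cone bipolar cells, beside 8.09% and 9.67%. The higher genes were Prdm8, at 2.18 ± 0.34 (SE) against ON cone bipolar cells, Bhlhe23, at 1.23 ± 0.28 (SE), and St18, at 1.01 ± 0.31 (SE), and Prdm8 and Bhlhe23 are known to be needed for rod bipolar cells to form. Zeb2 had 16.9, 20.7 and 15.1 CPM in rod bipolar cells and 598, 1012 and 539 CPM in ON cone bipolar cells, a log2 fold change of -5.05 ± 0.23 (SE), adjusted p = 7.37e-12. The lowest ON cone bipolar library lay far above the highest rod bipolar library. Irx6, at -5.14 ± 0.94 (SE), Nfia, at -3.47 ± 0.34 (SE), and Lhx4, at -2.0 ± 0.21 (SE), were the other lower factors against ON cone bipolar cells. Against OFF cone bipolar cells Bhlhe22, Irx5 and Six3 were lower as well, and the log2 fold change of Nfia there, -1.97, turned to 0.10 under narrower limits on barcodes (at least 1000 genes and at most 10% mitochondrial UMIs), which left 11, 7 and 16 rod bipolar cells.

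Calcium-binding proteins differed in both directions. Pcp4, a small protein of calcium signalling, had 4217, 4118 and 4644 CPM against 244, 403 and 501 CPM, a log2 fold change of 3.78 ± 0.20 (SE), adjusted p = 4.25e-11, and stood at 2282, 1778 and 1783 CPM in OFF cone bipolar cells. Cabp2, a calcium sensor of cone bipolar cells, was lower at -5.92 ± 0.49 (SE), as were Ncald at -1.85 ± 0.27 (SE) and Pcp4l1 at -1.33 ± 0.36 (SE). Of the 7 tested genes 2 were higher and 3 lower in either comparison, beside 6.92% and 8.04% of all genes against ON and 8.09% and 9.67% against OFF cone bipolar cells. Pcp4l1 turned to 0.33 against OFF cone bipolar cells under the narrower limits.

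Adhesion genes, which guide the contacts of bipolar axons and dendrites, were split. Of 13 tested, 4 were higher and 3 lower against ON cone bipolar cells, beside 6.92% and 8.04% of all genes. Against OFF cone bipolar cells 4 were higher and 4 lower, beside 8.09% and 9.67%. Lrrtm4, a postsynaptic organiser, had 253, 235 and 243 CPM in rod bipolar cells against 7.39, 0 and 28.4 CPM, a log2 fold change of 4.59 ± 0.44 (SE), adjusted p = 1.55e-07. Sdk1, Cntnap2 and Dscam were higher, at 3.15 ± 0.47 (SE), 2.0 ± 0.28 (SE) and 1.78 ± 0.44 (SE). Cdh9, a cadherin of cone bipolar cells, had 0, 0 and 1.51 CPM against 148, 157 and 142 CPM, a log2 fold change of -7.34 ± 0.68 (SE), adjusted p = 9.77e-08. Pcdh9 and Nrcam were lower, at -5.75 ± 0.34 (SE) and -5.35 ± 0.49 (SE).

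Of 16 ribbon synapse and release genes tested, 1 was higher and 1 lower against ON cone bipolar cells, near the 6.92% and 8.04% of all genes. Unc13b, a vesicle priming factor, was higher at 1.15 ± 0.19 (SE). Cplx4, a complexin that binds the release complex, had 11.2, 17.0 and 27.2 CPM against 679, 442 and 340.5 CPM, a log2 fold change of -4.46 ± 0.29 (SE), adjusted p = 7.62e-10. The related Cplx3 had 1186, 1433 and 1703 CPM against 923, 1101 and 1192 CPM in ON cone bipolar cells and was called only against OFF cone bipolar cells, at 1.13 ± 0.12 (SE). Of 10 inhibitory receptor genes, Gabrr1, a subunit of the ionotropic GABA receptor that rod bipolar cells are known for, was higher at 1.14 ± 0.21 (SE), adjusted p = 0.00045. Gabbr2, Gabrr3 and Gabbr1 were lower, at -5.35 ± 0.71 (SE), -2.79 ± 0.55 (SE) and -1.65 ± 0.41 (SE), and against OFF cone bipolar cells 5 genes were lower and 0 higher, beside 9.67% and 8.09% of all genes. Of 8 channel and pump genes tested, Kcnab2 was higher at 1.12 ± 0.23 (SE) and Slc24a3, a potassium-dependent sodium-calcium exchanger, lower at -3.60 ± 0.40 (SE). Against OFF cone bipolar cells 2 of the 8 were higher, among them Kcnma1, the BK channel, at 1.57 ± 0.14 (SE), and Slc24a3 and Trpm3 were lower, beside the same shares.

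Of 16 glycolysis genes 0 were higher and 5 lower against ON cone bipolar cells, with a median log2 fold change of -0.93, and 0 were higher and 5 lower against OFF cone bipolar cells, with a median of -0.74. Of all genes tested, 8.04% and 9.67% were lower. The 16 genes summed to 5525, 6565 and 7694 CPM in young, adult and old rod bipolar cells and to 12644, 13672 and 15180.2 CPM in ON cone bipolar cells. The highest rod bipolar sum lay under the lowest ON cone bipolar sum. Ldha, which makes the A subunit of lactate dehydrogenase, had 87.1, 148 and 210.1 CPM against 487, 570.1 and 757 CPM, a log2 fold change of -1.81 ± 0.16 (SE), adjusted p = 4.72e-08. Ldhb, the B subunit, had 1, 26 and 4 UMIs in young, adult and old rod bipolar cells, or 0, 0 and 1 UMIs without the mixed droplets, and 157, 221 and 229 CPM in OFF cone bipolar cells. Aldoc, Pfkl, Aldoa and Pkm were the other lower genes against ON cone bipolar cells, at -1.86 ± 0.30 (SE), -1.52 ± 0.24 (SE), -1.03 ± 0.13 (SE) and -1.01 ± 0.13 (SE).

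Of 13 mitochondrially encoded genes of oxidative phosphorylation 4 were higher and 0 lower against ON cone bipolar cells, beside 6.92% and 8.04% of all genes, with a median log2 fold change of 0.94, led by mt-Nd5 at 1.20 ± 0.14 (SE) and mt-Cytb at 1.12 ± 0.14 (SE). The 13 genes took 14.7%, 15.2% and 13.6% of the UMIs of rod bipolar cells and 8.14%, 9.75% and 8.36% of those of ON cone bipolar cells, in young, adult and old libraries. The mitochondrial share is also a usual sign of cell damage, and the part of damage was not tested. Of 35 nuclear genes of the same complexes 1 was higher and 0 lower, a smaller share than that of all genes, with a median of 0.24. That gene was Ndufa4, a subunit now placed with cytochrome c oxidase, with 2321, 2174 and 2708 CPM against 982, 796 and 974 CPM, a log2 fold change of 1.64 ± 0.13 (SE), adjusted p = 1.03e-08. Of 37 ribosomal protein genes 0 were called against either class, with medians of 0.12 against ON and 0.04 against OFF cone bipolar cells.

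**Figure D4:**
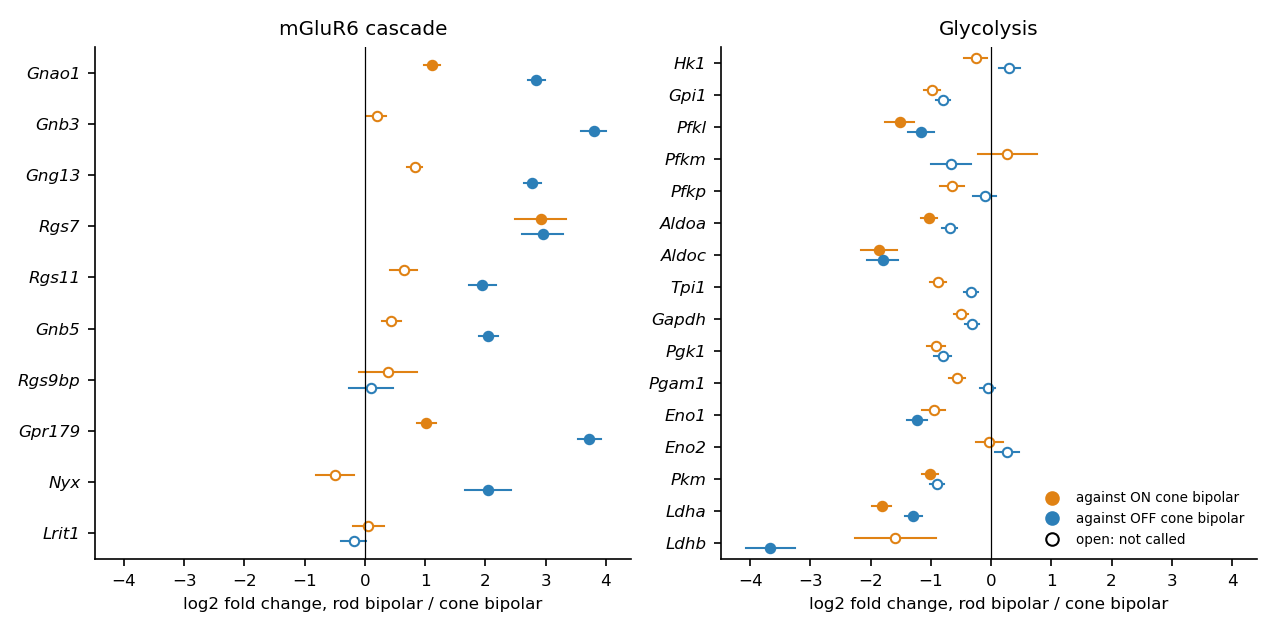
Log2 fold change (x axis, bars 1 SE) of the tested genes of the mGluR6 cascade and of glycolysis, rod bipolar against ON cone bipolar and against OFF cone bipolar cells, with filled points for called genes. In the cascade 8 genes are called higher against OFF cone bipolar cells, and in glycolysis 5 genes are called lower in each comparison and 0 higher.

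Markers of other cell types moved with the same comparisons. Of 8 rod markers tested against ON cone bipolar cells, 2 were higher, among them Prph2, and Gngt1 was lower, and both cone markers tested, Gnat2 and Gngt2, were lower, at -3.92 ± 0.42 (SE) and -5.02 ± 0.21 (SE). Of 6 Müller glia markers tested, Vim and Apoe were higher against ON cone bipolar cells and 5 were lower against OFF cone bipolar cells, 1 of which, Clu, turned to 0.52 under the narrower limits. Apoe had 39.3, 857 and 45.3 CPM in young, adult and old rod bipolar cells, so the adult library carried its level. Of all genes tested, 6.92% were higher and 8.04% lower against ON and 8.09% and 9.67% against OFF cone bipolar cells. The part of these transcripts in the results was not tested. Without the mixed droplets 304 genes were higher and 380 lower against ON cone bipolar cells, of 4014 tested.

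Variation among rod bipolar cells was measured as the variance-to-mean ratio of counts thinned to 3000 UMIs per cell, in 89, 86 and 74 cells. Over 1923 genes the median ratio was 1.09, where 1 is the value of pure counting. Gm42418, a noncoding RNA that overlaps a ribosomal RNA repeat, had the highest ratio, at 56.5, and a mean of 225, 154 and 158 thinned UMIs per young, adult and old cell. The rod gene Gngt1, at 19.4, varied through a few cells with many UMIs. It was found in 6.74%, 11.6% and 6.76% of the thinned cells, with up to 36 UMIs in 1 cell. Malat1, mt-Co1, mt-Co3, mt-Co2 and AY036118 had ratios of 13.0, 6.92, 6.39, 5.09 and 5.17. Ctsl, a lysosomal protease, reached 5.21 through the adult library, where 1 cell held 27 UMIs.

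Pcp2 was the only rule gene among the 10 most variable genes, at 5.75, and the ratio rises with a gene's level. The ratio was 5.0 for Gng13, 3.04 for Trpm1, 1.80 for Prkca and 1.00 for Grm6. Without the mixed droplets the ratio of Grm6 was 1.28.

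For age, summed UMIs of old and young rod bipolar cells were compared for 5692 genes with at least 30 UMIs in the 2 libraries together. Mixed droplets included, 488 of these (8.57%) were at least 1.5-fold higher and 424 (7.45%) at least 1.5-fold lower in the old library, and the median log2 ratio was 0.04. With totals that left out the mitochondrial genes, the rod markers and Gm42418, a choice made after seeing the data, 404 were higher and 536 lower. Without the mixed droplets, 426 (7.89%) of 5401 genes were higher and 421 (7.79%) lower. The intervals given with ratios are exact 95% intervals for counting error and hold no difference between animals.

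Of the 10 genes that led the higher side, mixed droplets included, 9 had nearly all their old UMIs in the mixed droplets. Vtn, Abcc9, Kcnj8 and Rgs5 are among the pericyte markers that define a mixed droplet. Their shares there, and their levels without those droplets, were thus in part set by the definition. Vtn, which encodes vitronectin and is a pericyte marker, had 5, 111 and 166 UMIs in young, adult and old rod bipolar cells, and 92.8% of the old UMIs lay in mixed droplets and 84.3% in 1 cell. Abcc9 and Kcnj8, the channel subunits of pericytes, had 0, 62 and 36 UMIs and 1, 11 and 31 UMIs, with 94.4% and 96.8% of the old UMIs in mixed droplets. The share was 98.5% for Rgs5, 95.2% for Mgp, 90.3% for Ly6a, 92.5% for Pltp, 96.6% for Hes1 and 84.8% for Id3. Without those droplets the ratio of Rgs5 and of Hes1 was under 1. Olfr655, an odorant receptor gene, had 3, 7 and 30 UMIs with none in mixed droplets, in 6 old cells.

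The genes were then ranked without the mixed droplets among those with a UMI in at least 25% of the young or the old cells, a choice made after seeing the data. Of 4126 such genes 299 (7.25%) were at least 1.5-fold higher and 248 (6.01%) lower. This limit lets a gene in through the age where it is high, so these counts are a description. Ldha was among the first, with 88.0, 123 and 222 CPM in young, adult and old cells and a ratio of 2.52 (1.85 to 3.48). Bnip3, a mitochondrial protein of mitophagy and a known target of hypoxia signalling, had 69.3, 106 and 165 CPM and a ratio of 2.38 (1.67 to 3.44). Mif, a cytokine with tautomerase activity, had 517, 546 and 978 CPM and a ratio of 1.89 (1.66 to 2.17). All 3 genes had their highest value in the old library, with the adult value between. In the other classes, without the mixed droplets, the ratio of Ldha was 1.45 (1.03 to 2.03) in ON cone bipolar cells, 1.77 (1.25 to 2.52) in OFF cone bipolar cells and 0.979 (0.863 to 1.11) in rods. For Bnip3 it was 1.07 (0.686 to 1.65), 0.940 (0.631 to 1.39) and 0.641 (0.382 to 1.06), and for Mif 1.05 (0.887 to 1.23), 1.00 (0.852 to 1.17) and 0.969 (0.818 to 1.15), in the same order. The differences between classes were not tested. Tdrd9, Snrnp40, Rbm22, Fabp3, Agpat5 and Mllt11 also stood in the first 10, but had a UMI in under 25% of the young cells. They entered through the old cells alone, so a higher old level was built into their choice and their ratios are not given.

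Most glycolysis genes had a higher level in the old than in the young library. Without the mixed droplets, 13 of 15 genes with enough UMIs were higher in the old library, with a median log2 ratio of 0.55, where 2890 of all 5401 genes were higher. Of the 15 genes 5 were at least 1.5-fold higher and 0 at least 1.5-fold lower, beside 7.89% and 7.79% of all genes. Between adult and young the median was 0.16, with 14 of 15 genes higher and 0 past 1.5-fold. Of all 5645 genes in that comparison 2860 were higher, 6.57% at least 1.5-fold. The medians in the other classes, old to young, were 0.08 in rods, 0.15 in OFF and 0.30 in ON cone bipolar cells, and the difference from rod bipolar cells was not tested. Gapdh had 1375, 1601 and 2007 CPM in young, adult and old rod bipolar cells, a ratio of 1.46 (1.34 to 1.59). Aldoa, the aldolase of most tissues, had 818, 917 and 1268 CPM, a ratio of 1.55 (1.39 to 1.73). The adult values of Gapdh and Aldoa lay between the young and the old. Pgam1, Eno1 and Aldoc had ratios of 1.54 (1.37 to 1.74), 1.54 (1.25 to 1.91) and 2.29 (1.39 to 3.86), Tpi1 of 1.46 (1.28 to 1.67) and Pgk1 of 1.41 (1.15 to 1.74). Hk1, which encodes the hexokinase at the entry of the pathway, had a ratio of 0.800 (0.609 to 1.05), Pfkp of 1.01 (0.834 to 1.23) and Eno2, the neuronal enolase, of 0.963 (0.720 to 1.29).

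**Figure D5:**
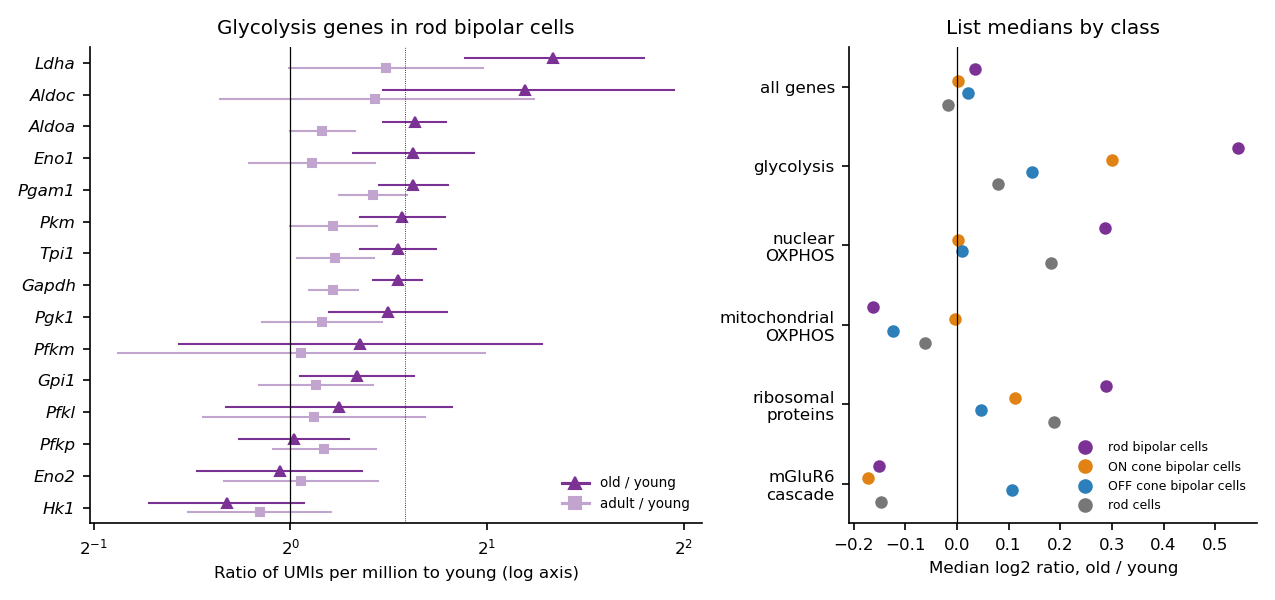
Left, ratio of CPM to the young library (log axis, exact 95% intervals for counting error) for 15 glycolysis genes in rod bipolar cells without the mixed droplets, old and adult, with a dotted line at 1.5. Right, median log2 ratio of old to young for gene lists in 4 cell classes, where glycolysis in rod bipolar cells lies at 0.55 and in rods at 0.08.

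The shift of glycolysis stood beside other differences between the libraries. The median mitochondrial share was 13.4% in old against 15.7% in young rod bipolar cells, and the rod marker sum was higher in the old library. With the mixed droplets included, the glycolysis median was 0.49, with 5 of 15 genes at least 1.5-fold higher, beside 8.57% of all genes. With those droplets again included, the count with no upper limit on the mitochondrial share, a choice made after seeing the data, held 110 young and 99 old cells and gave a median of 0.46, with 14 of 15 genes higher and 2 at least 1.5-fold, where 3235 of all 6134 genes were higher and 519 at least 1.5-fold. Totals without mitochondrial genes, rod markers and Gm42418, mixed droplets included, gave a median of 0.42, with 2 genes at least 1.5-fold higher, where 404 of all 5692 genes were, with a median of -0.03. Under the narrower limits, mixed droplets included, 8 of 11 genes were higher, 6 of them at least 1.5-fold, with a median of 0.60. Of all 1355 genes there 744 were higher, 341 of them at least 1.5-fold. The log2 ratios of Pfkl, Pfkm and Pfkp were -0.48, -0.46 and -0.44 there.

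An Ldha promoter is shown because this gene had the highest ratio of the 15 glycolysis genes with at least 30 UMIs without the mixed droplets. RefSeq gives Ldha a pair of promoters, of which the one with more matches is shown, and the other held 1. The letters ACGTG and GCGTG, the core of the known hypoxia-response element, were searched on both strands, where the other strand reads CACGT and CACGC and the palindrome CACGTG counts on either strand. Such a match stood in 38.6% of 32851 promoters of all genes and in 20 of 27 promoters of glycolysis genes (74.1%), which belonged to 13 of 16 genes. The window at chr7:46845554-46845803 on the plus strand held 5 matches, of which 2 pairs overlap, and capitals mark them. The letters say nothing of a factor being bound in these cells.
Ldha promoter: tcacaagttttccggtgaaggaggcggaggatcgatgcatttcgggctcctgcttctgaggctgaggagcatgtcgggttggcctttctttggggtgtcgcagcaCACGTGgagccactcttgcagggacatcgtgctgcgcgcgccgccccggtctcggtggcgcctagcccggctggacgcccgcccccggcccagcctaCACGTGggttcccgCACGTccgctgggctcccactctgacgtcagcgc

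Other lists of energy and growth genes were described in the same way. All 35 nuclear genes of oxidative phosphorylation were higher in old than in young rod bipolar cells, with a median log2 ratio of 0.29 and 0 past 1.5-fold. Of all 5401 genes 2890 were higher, 7.89% at least 1.5-fold. The median was 0.18 in rods, 0.00 in ON and 0.01 in OFF cone bipolar cells. All 37 ribosomal protein genes were higher, with a median of 0.29 and 0 past 1.5-fold, against 0.19 in rods, 0.11 in ON and 0.05 in OFF cone bipolar cells. With the mixed droplets included the medians were 0.25 and 0.28, and 0.19 and 0.21 with the totals without mitochondrial genes, rod markers and Gm42418, where 34 of 35 and 36 of 37 genes were higher. With those totals 2668 of all 5692 genes were higher, with a median of -0.03. Under the narrower limits, mixed droplets included, with 11 young and 16 old cells, 25 of 33 nuclear genes and 27 of 37 ribosomal genes were at least 1.5-fold higher, with medians of 0.66 and 0.72, both above the glycolysis median of 0.60 under these limits, where 341 of all 1355 genes were at least 1.5-fold higher. Of 13 mitochondrially encoded genes 12 were lower in the old library, with a median of -0.16.

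The rule genes and the cascade were described with age as well. The cells were chosen by the 9 rule genes, so the levels of these genes are a description and bear on no change with age. Without the mixed droplets the old-to-young ratio of all 9 was within 1.5-fold. Pcp2 had 8270.2, 9913 and 10796 CPM, a ratio of 1.31 (1.26 to 1.35), and Trpm1 had 3715, 3438 and 3109.8 CPM, a ratio of 0.837 (0.788 to 0.889). Of the 3 libraries the young had the highest Trpm1 and the lowest Pcp2 level. In ON cone bipolar cells the ratio of Pcp2 was 0.406 (0.318 to 0.515). The mGluR6 cascade had a median log2 ratio of -0.15 over 10 genes, with 0 genes at least 1.5-fold higher and 1 lower, beside 7.89% and 7.79% of all genes. That gene was Rgs9bp, an anchor of RGS proteins, with 38, 34 and 17 UMIs in young, adult and old cells. Rgs9bp reached the minimum number of UMIs mainly through the young library, so a lower old level was in part built in. Its ratio is therefore not given, and its count as lower is a description. Gpr179 had 674, 551 and 522 CPM, a ratio of 0.774 (0.669 to 0.896), and Gng13 had 7053, 8174 and 8949 CPM, a ratio of 1.27 (1.22 to 1.32). With the mixed droplets included the median of the cascade was -0.22, and it turned to 0.23 under narrower limits on barcodes, which left 11 young and 16 old cells. Of 16 ribbon and release genes 0 were at least 1.5-fold higher and 1 lower, and Cplx3 had a ratio of 1.44 (1.32 to 1.58), against 1.46 (1.16 to 1.85) in OFF cone bipolar cells.

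The 10 genes that led the lower side, ranked with the mixed droplets included, held 4 noncoding RNAs, Gm26917, Gm26724, Gm42418 and Kcnq1ot1, and 6 protein-coding genes. Gm42418 had 81590.3, 56214 and 55393 CPM in young, adult and old cells, a ratio of 0.679 (0.670 to 0.688), so the young library stood above both others. In OFF cone bipolar cells the ratio was 0.982 (0.955 to 1.01), in ON cone bipolar cells 0.936 (0.903 to 0.970) and in rods 0.768 (0.757 to 0.779). Gm26917 (chromosome 17, 39843013 to 39846341, plus strand, GRCm38), which ends 616 bases before Gm42418, had 90.9, 41.5 and 28.6 CPM, with 63 young and 17 old UMIs. It reached the minimum of 30 UMIs mainly through the young library, so a lower old level was in part built in and its ratio is not given. Reads could be shared between Gm26917 and Gm42418 as neighbours, and they are reported as uncertain. Kcnq1ot1, an imprinted antisense RNA, had 704, 624 and 439 CPM, a ratio of 0.624 (0.535 to 0.727), against 1.56 (1.09 to 2.22) in ON cone bipolar cells, 0.793 (0.564 to 1.11) in OFF cone bipolar cells and 0.452 (0.30 to 0.670) in rods. Lars2, the mitochondrial leucyl-tRNA synthetase, had 2243, 1213 and 1335 CPM, a ratio of 0.595 (0.546 to 0.649), against 1.49 (1.21 to 1.84) in ON cone bipolar cells, 1.14 (0.973 to 1.33) in OFF cone bipolar cells and 0.930 (0.863 to 1.00) in rods. The mitochondrially encoded mt-Nd6 had a ratio of 0.467 (0.321 to 0.668), against 0.867 (0.303 to 2.37) in ON cone bipolar cells, 0.559 (0.294 to 1.03) in OFF cone bipolar cells and 0.543 (0.372 to 0.783) in rods. Gm26724, Edrf1, Mcf2l, Gpatch2 and Scaf8 completed the first 10, with 4 to 16 old UMIs each. They reached the minimum of 30 UMIs mainly through the young library, so a lower old level was in part built into their choice and their ratios are not given.

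Stress and interferon genes were sparse. Of 16 core interferon-stimulated genes 1 had at least 30 UMIs in young and old rod bipolar cells together, without the mixed droplets, with a log2 ratio of -0.04. With those droplets 2 genes had enough UMIs, with a median of 1.29, and the 16 summed to 82.9, 155 and 215 CPM in young, adult and old cells. Without them, Irf7 had 1, 2 and 1 and Isg15 1, 0 and 0 UMIs in young, adult and old cells, so that no difference was detectable at this depth. H2-D1, a class I histocompatibility gene, had 15, 14 and 26 UMIs, a ratio of 2.02 (1.03 to 4.11), and B2m, its light chain, had 3, 2 and 8 UMIs. The old library was highest for both. All 7 heat shock genes with enough UMIs were higher in the old library, with a median log2 ratio of 0.14 and 0 past 1.5-fold, where 2890 of all 5401 genes were higher. Of 7 immediate early genes 0 were at least 1.5-fold higher and 2 lower, with a median of -0.27, beside 7.89% and 7.79% of all genes, and with the mixed droplets included the median was 0.69. Of 9 rod markers with enough UMIs 6 were at least 1.5-fold higher and 0 at least 1.5-fold lower in old rod bipolar cells, without the mixed droplets, beside the same shares of all genes.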

How the data were processed

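The authors deposited UMI counts per gene and barcode for 3 libraries, made with the 10x Genomics v3.1 chemistry and, per the submitters' processing notes, Cell Ranger 6.1.2 with mm10. The study removed doublets with DoubletFinder, which was not repeated here. Scrublet marked 8, 17 and 12 kept barcodes, of which 1, 3 and 3 were rod bipolar cells. Droplets with markers of other classes were found instead by counting markers. Rod bipolar cells and gene lists were chosen with earlier results of these data known. UMI counts were summed by library and class and tested with edgeR 4.0.16 (quasi-likelihood, TMM, filterByExpr, library as a term), with Benjamini-Hochberg adjustment, and the code was tested on simulated data. There, against ON cone bipolar cells, it found 17.4% of genes changed 2-fold and 87.0% of those changed 4-fold. Of the significant genes 5.95% were false. A gene that was not called may therefore still differ 2-fold. DESeq2 1.42.0 was an alternative. The tests measure how the difference between classes varied across the 3 libraries, which also differ in age. Levels are UMIs per 1000000 UMIs of the class (CPM), with exact Poisson intervals. A floor of 3 UMIs over the class served genes at 0. No per-gene p-value was computed for age.

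Named genes were those of the lists, the 12 highest and 12 lowest by log2 fold change against ON cone bipolar cells among genes called with 1 direction in all libraries, the 10 highest and 10 lowest by the bound of the old-to-young ratio nearest 1, and the 10 most variable genes. Some genes that met this rule are not reported here. Gene positions are from GENCODE (GRCm38) and promoters from RefSeq (GRCm38.p6). The analysis used R 4.3.3, Python 3.11.15, scanpy 1.11.5 and scipy 1.17.1.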

Additional observations from a re-analysis of the deposited data

Results flagged for a closer look

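In the young, adult and old libraries, 21, 25 and 23 barcodes met the marker rule for rod bipolar cells but had more than 20% mitochondrial UMIs, and so stood outside the cells described. They were 18.6%, 21.9% and 22.5% of the barcodes that met the marker rule under any limits, which numbered 113, 114 and 102. With no upper mitochondrial limit and the limits on genes kept, which gave 110 young and 99 old cells, mixed droplets included, the old-to-young median log2 ratio was 0.23 for the nuclear genes of oxidative phosphorylation and 0.27 for the ribosomal protein genes, with all 35 and all 37 genes higher, and -0.12 for the mitochondrially encoded genes. Of all 6134 genes in that setting 3235 were higher, with a median of 0.05.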

How the results depend on the processing

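Called genes totalled 655 against ON and 777 against OFF cone bipolar cells. With no filter on low counts (17030 genes) the totals were 1052 (567 higher) and 1481 (646 higher, 835 lower). With narrower limits on barcodes (2527 genes), they were 286 (140 higher, 146 lower) and 346 (178 higher, 168 lower), and rod bipolar shares were 0.882%, 0.537% and 1.37%; these limits left 11, 7 and 16 rod bipolar cells, the adult count under the 10 otherwise asked of a class. Leaving out 1 library in turn gave totals of 580 to 653 (288 to 318 higher, 292 to 335 lower) against ON and 775 to 884 (369 to 406 higher, 406 to 478 lower) against OFF cone bipolar cells. DESeq2 called 222 higher and 290 lower, and 299 higher and 352 lower.

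Genes at least 1.5-fold higher and lower with age numbered 488 and 424 of 5692. They were 198 and 120 of 1801 genes in counts thinned to 2000 UMIs. They were 63 and 51 at a minimum of 100 UMIs, which also keeps fewer genes, and 287 and 230 with a pseudocount of 10 CPM. With narrower limits 341 were higher and 211 lower of 1355, and with totals without mitochondrial genes, rod markers and Gm42418 404 were higher and 536 lower. Without mixed droplets, among genes in at least 25% of cells, 299 were higher and 248 lower. Direction turned under narrower limits for Clu (0.52), Jun (0.036), Junb (0.030), Nfia (0.10) and Pcp4l1 (0.33) against OFF cone bipolar cells, all on the log2 scale, and for the median age ratio of the mGluR6 cascade (0.23). Other age ratios also turned there: Pfkl (-0.48), Pfkm (-0.46), Pfkp (-0.44), Rgs7 (0.13), Rgs11 (0.33), Ric8b (1.39) and the medians of the endothelial (-1.46) and Müller glia markers (-0.10), the bipolar transcription factors (0.17), the channels and pumps (0.0031) and the 4 ON bipolar rule genes (0.031). Without mixed droplets it turned for Hes1 (-1.36) and for Rgs5 (-1.78), a marker used to define those droplets. It also turned there for the medians of the immediate early genes (-0.27), core interferon-stimulated genes (-0.04), Müller glia markers (-0.04), bipolar transcription factors (0.03) and adhesion genes (0.03). In counts thinned to 2000 UMIs it turned, among others, for the medians of the immediate early genes (-0.09) and inhibitory receptors (-0.07) and for Pfkl (-0.19). The cause was not tested. A stricter gate for ON cone bipolar cells left fewer than 10 cells per library and was not run. Of the listed and named genes called against ON cone bipolar cells, 648 gene and setting pairs kept their call and 55 lost it, and against OFF cone bipolar cells 816 kept it and 49 lost it.

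No paired analysis was possible because each age has 1 library, as far as ages are compared. The class comparison had library as a term, and without that term 299 genes were higher and 349 lower against ON and 351 and 417 against OFF cone bipolar cells. Each library's cells of 2 animals are counted as 1 sample, so no difference between animals is measured. The ON cone bipolar class holds 64 cells, which limits what is detectable against it.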
